A study of Mus musculus with 40 samples.

Results

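Polysomal RNA was compared with total RNA in mouse oocytes that had been freed of their cumulus cells and matured in vitro (denuded oocytes, group IVM). The groups were 3 polysomal libraries (replicates 2, 3 and 4) and 4 total RNA libraries (replicates 1 to 4), so 7 of the 40 libraries of the series were used. Polysomal replicate 1 is marked as excluded in the deposited table and entered an alternative fit only. Genes were taken where the polysomal and the total table both list them, which gave 5086 genes of 5093 in the polysomal table and 10996 in the total table. The genes were ranked by the log2 of their polysomal over their total value. The sources used here give no genotype, strain or age, and no treatment beyond maturation, polysome fractionation and RNA isolation. The tissue is labelled ovarian and the cells germ cells. Nothing in the labels ties a replicate to its own animal or collection, and a p-value here therefore covers only library-to-library spread, which may be technical.

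A fully grown oocyte does not transcribe. It draws on stored messenger RNA, and protein output is set by which stored messages are loaded with ribosomes. Sedimentation through a gradient separates messages with several ribosomes (polysomes) from free ones, so the ratio of polysomal to total RNA is a relative measure of ribosome loading. During meiotic maturation some messages with a short poly(A) tail are known to be re-adenylated and translated through a cytoplasmic polyadenylation element near their 3′ end, while many messages of growth are known to be deadenylated and silenced.

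The value of each gene is RPKM (reads per kilobase of gene, scaled to the reads of the library) as the authors deposited it. Each library was then divided by its median-of-ratios factor, so that a typical gene has a ratio near 1, and log2(RPKM + 1) was tested with limma with Benjamini-Hochberg adjustment over all 5086 genes. A gene is called at an adjusted p under 0.05. Higher and lower therefore mean above and below the typical gene, and the ratio does not give the share of a message that was on polysomes. In bulk RNA, fewer cells and less RNA per cell cannot be told apart. Library values below are rescaled RPKM in the order polysomal 2, 3, 4 and total 1, 2, 3, 4, and errors of log2 ratios are standard errors (n = 3 polysomal, 4 total). Where groups are said not to overlap, this describes the values of that gene only. The share of all genes without overlap is not given here, so it does not set a gene apart.

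The recovered depth was 4.93 M reads in polysomal replicate 2, 25.5 M and 25.1 M in replicates 3 and 4, and 46.6 to 51.0 M in total RNA. A tested gene had a median of 314 reads in polysomal replicate 2 and of 4363 or more in each total library. Polysomal libraries varied more than total libraries: the median SD over genes was 0.37 against 0.119 on the log2 scale. Spearman correlations between libraries were 0.883 to 0.945 among the 3 polysomal libraries, 0.977 to 0.997 among total libraries, and 0.668 to 0.700 between polysomal replicate 1 and the other polysomal libraries. Total replicate 2 stood apart from the other total libraries, at 0.977 to 0.981 against 0.996 to 0.997. All 14 oocyte markers listed were tested. Of 22 cumulus and granulosa markers, 3 were in the total table (Col4a1, Nr5a2 and Cyp19a1), with a summed RPKM of 14.2 to 19.2 against 7260 to 7530 for the oocyte markers. Among polysomal values only that of Nr5a2 was listed, at 5.25 to 6.23 RPKM against 4720 to 7880 for the oocyte markers.

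**Figure D1:**
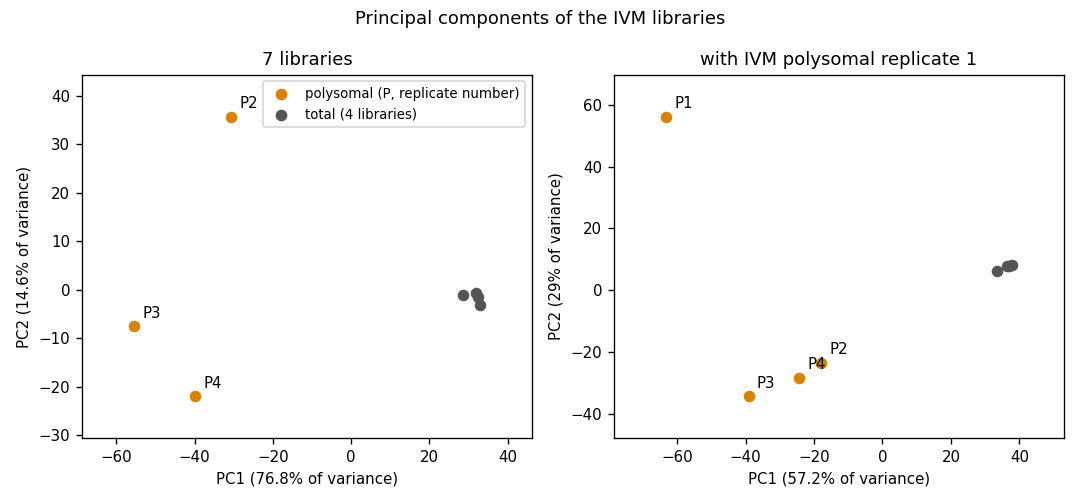
Principal components of log2(rescaled RPKM + 1) of 5086 genes, without (left) and with (right) polysomal replicate 1; orange points are polysomal libraries with their replicate number, grey points the 4 total libraries. On the left the first component holds 76.8% of the variance and separates the fractions, and replicate 2 lies apart from replicates 3 and 4 on the second (14.6%); on the right replicate 1 lies apart from the others on the second (29%).

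Of the 5086 genes, 1588 were higher in polysomal RNA (31.2%) and 1432 lower (28.2%), 59.4% in all. With a change of at least 2-fold as well, 1116 genes were higher (21.9%) and 533 lower (10.5%). Ratios ran from 4.83 to -2.48 on the log2 scale with a median of -0.04. On RPKM as deposited the median was -0.54 and 1006 genes were higher and 2635 lower, so the split of calls, 52.6% higher after rescaling, was 27.6% higher without it. With polysomal replicate 1 kept, 1170 genes were higher and 956 lower. With one limma weight per fraction, which lets polysomal libraries vary more than total libraries, 1414 were higher and 999 lower, and 2381 genes were called in the same direction with and without the weights.

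The ratio went with GC content and with length. The tested genes were cut into 5 equal bins by each property. Genes in the bin with the highest transcript GC (55.8% to 71.3%) had a median log2 ratio of 1.10, with 689 of 1017 higher and 61 lower. In the bin with the lowest GC (31.9% to 45.1%) the median was -0.64, with 57 higher and 598 lower. By coding length, the bin with the shortest frames (111 to 762 bases) had a median of 1.01, and the bin with the longest (2856 bases and more) had -0.40. Across genes, which are not independent replicates, Spearman's rho with the ratio was 0.58 for GC (5082 genes), -0.43 for coding length (5081 genes), -0.24 for 3′ UTR length (5062 genes) and -0.12 for 5′ UTR length (4924 genes). GC and coding length were nearly unrelated to each other (rho -0.04). With 3 equal bins of each property, genes of high GC and short frame had a median ratio of 1.55 (585 genes), genes of low GC and long frame -0.71 (607 genes), and genes of high GC and long frame 0.11 (511 genes). The relation to GC was seen in each polysomal library (rho 0.50, 0.55 and 0.55 in replicates 2, 3 and 4) and in the other oocyte groups, at 0.54 in oocytes matured in vivo (IVO) and 0.57 in oocytes matured in vitro inside their cumulus (COC). Gene lists differ in these properties, so each list median is given below also after each library's trend on GC and on exonic length was removed. List counts below stand beside 31.2% of all genes higher and 28.2% lower. The part of either property in a single result was not tested.

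**Figure D2:**
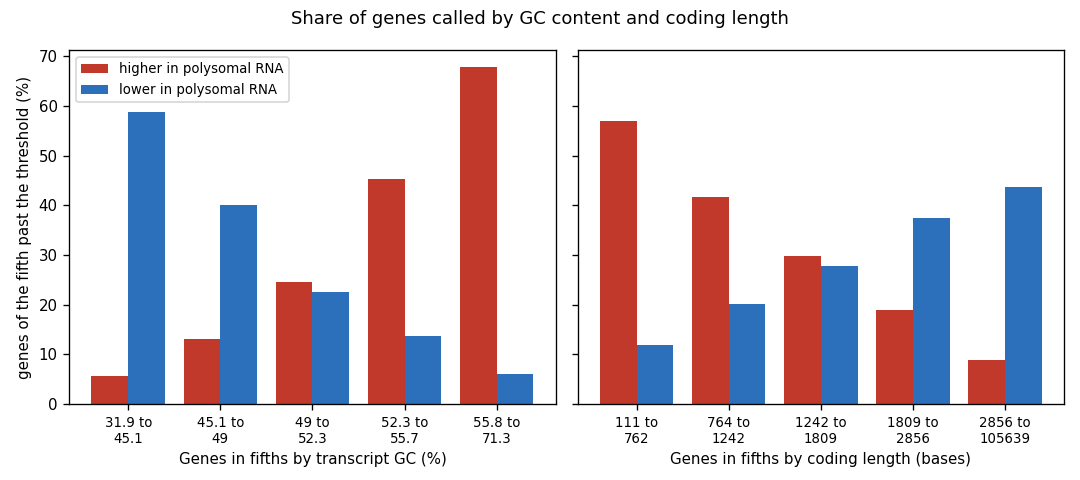
Share of genes (y axis, %) called higher (red) or lower (blue) in polysomal than in total RNA, in 5 equal bins of the tested genes by transcript GC (left) and by coding length (right). Calls higher rise from the lowest to the highest GC bin (57 of 1017 to 689 of 1017 genes) and fall from short to long coding sequences.

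Ribosomal protein messages stood high. Of 74 genes of cytosolic ribosomal proteins, the structural proteins of the ribosome, 68 were higher, none lower and 6 not called, with a median log2 ratio of 2.04 against -0.04 for all genes. Per library the median stood at 1.39, 2.62 and 2.03 over the mean of total RNA in polysomal replicates 2, 3 and 4. After both trends were removed the list median lay at 1.12, with 51 higher and 2 lower. Their median coding length was 462 bases, against 1482 for all genes.

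Rpl26, a protein of the large subunit, stood at 78.3, 112 and 75.6 in polysomal RNA and at 12.3, 7.91, 14.4 and 12.4 in total RNA. No polysomal value overlapped the total values, and the log2 ratio was 2.82 ± 0.23 (limma adjusted p = 8.1e-05). Rps29, of the small subunit, stood at 249, 748 and 630.4 against 52.5, 127, 55.0 and 51.6 (2.87 ± 0.44, limma adjusted p = 0.000932). Its groups did not overlap, and total replicate 2 was the highest of the total libraries. Rpl27a had a ratio of 2.27 ± 0.16 and Fau, which encodes a fusion of a ubiquitin-like protein with a small-subunit protein, 2.42 ± 0.23. Fau was at 0.08 and not called after both trends were removed. Rpl4 and Rpl5, named after their values were seen, were the 2 members with a ratio below 0, at -0.79 ± 0.31 and -0.38 ± 0.29, neither called. Ribosomal protein genes have many processed pseudogenes, and how reads with several matches were counted is not given in the sources used here, so single values of this family are uncertain.

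Vertebrate ribosomal protein messages are known to begin with a terminal oligopyrimidine tract, a run of C and T at the cap that puts them under control of mTOR signalling. The start regions are shown because this is the shared sequence known for ribosomal protein messages, and those of 2 elongation factors and of Eif5 stand beside them. They are 15 bases before and 15 after the RefSeq gene start (GRCm38.p6), with the longest run of C and T that begins with C and has at least 8 letters in capitals.
Fau, chr19:6057932-6057961, plus strand: tgcgcgcccccaCTTCTTCCTCTTTCTTga
Rpl27a, chr7:109519180-109519209, plus strand: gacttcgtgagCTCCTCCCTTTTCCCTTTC
Rps18, chr17:33955651-33955680, minus strand: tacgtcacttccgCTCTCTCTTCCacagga
Rpl26, chr11:68901551-68901580, plus strand: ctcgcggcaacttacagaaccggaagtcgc
Rps13, chr7:116334176-116334205, minus strand: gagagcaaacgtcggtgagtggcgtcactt
Eef1a1, chr9:78481710-78481739, minus strand: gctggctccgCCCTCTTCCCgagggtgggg
Eef2, chr10:81176616-81176645, plus strand: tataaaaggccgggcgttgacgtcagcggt
Eif5, chr12:111538086-111538115, plus strand: gagatcgacgtgcatgcgagccaatgacaa
Such a run on the sense strand within 30 bases of the start was in 31 of 54 ribosomal protein genes with an entry (57.4%), in 912 of 4148 tested genes (22%) and in 5570 of 27025 RefSeq genes (20.6%). Among ribosomal protein genes the median log2 ratio was 1.79 with and 2.04 without the run. Among all tested genes it was -0.02 with and -0.04 without. Annotated starts need not be the starts used in the oocyte, so a gene without the run here may still have the tract. Rps18, a small-subunit protein, had the highest ratio of the list (3.27 ± 0.26, limma adjusted p = 8.1e-05). Eef1a1, the elongation factor that brings aminoacyl-tRNA to the ribosome and also a known message of this class, has the run shown above and stood at 381, 256 and 194 against 289.9, 323, 283 and 270.0. Its groups overlapped and its ratio was -0.13 ± 0.23 (limma adjusted p = 0.654). Eef2, the factor that moves the ribosome along the message and another known member of the class, named after its values were seen, has no run in the window shown and was higher, at 294.5, 211 and 204 against 98.6, 106, 99.2 and 91.5 (1.23 ± 0.17, limma adjusted p = 0.000547).

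Of 43 translation factors, 15 were higher and 14 lower, against 31.2% and 28.2% of all genes, with a median of -0.09, and of -0.05 after both trends were removed. Eif3k, a small subunit of the initiation factor that binds the 40S ribosome, was higher (2.31 ± 0.29, limma adjusted p = 0.000374), as was Eif2b2, a subunit of the exchange factor for eIF2, at 44.5, 75.0 and 79.6 against 16.3, 17.9, 17.0 and 15.8 (1.88 ± 0.21). Eif5, the GTPase activator of start-codon selection, was lower, at 11.6, 15.9 and 17.9 against 42.9, 57.9, 39.1 and 42.1 (-1.53 ± 0.20, limma adjusted p = 0.000411). Eif4a2, a helicase of cap-dependent initiation, was lower too, at 8.86, 9.43 and 10.3 against 21.7, 18.9, 19.6 and 20.02 (-1.0 ± 0.13), and was at -0.28 and not called after both trends were removed. The groups did not overlap for Eif2b2, Eif5 or Eif4a2.

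**Figure D3:**
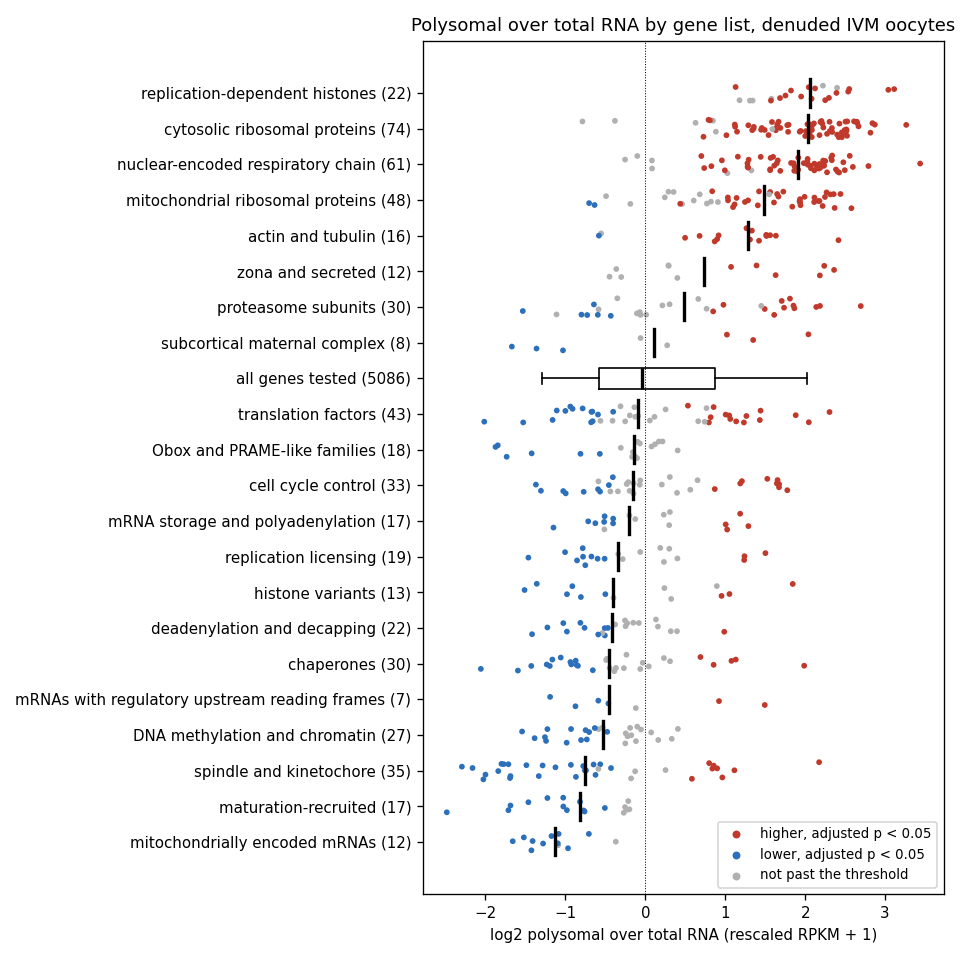
Log2 polysomal over total RNA of each member of the gene lists (points; red called higher, blue called lower, grey not called at a limma adjusted p under 0.05), with the list median as a black bar and the number of genes tested in brackets; the box of all genes spans the quartiles and its whiskers the central 90%. Ribosomal proteins, respiratory chain subunits and replication-dependent histones sit at the right, mitochondrially encoded and maturation-recruited messages at the left.

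Nuclear genes for mitochondrial proteins stood high and genes of the mitochondrial genome low. Of 61 nuclear-encoded subunits of the respiratory chain and ATP synthase, 55 were higher and none lower, with a median of 1.91 (1.26, 2.34 and 2.22 in polysomal replicates 2, 3 and 4). After both trends were removed the median was 0.82, with 40 higher and 4 lower. Cox5a, a subunit of cytochrome c oxidase, stood at 158, 257 and 187 against 32.2, 41.5, 37.6 and 32.6 (2.42 ± 0.20, limma adjusted p = 8.1e-05). Atp5k, a small subunit of ATP synthase, stood at 328, 850 and 790.0 against 35.7, 108, 49.5 and 46.8 (3.44 ± 0.44, limma adjusted p = 0.00039), rank 3 of all genes. In both genes every polysomal value lay above every total value. Of 48 mitochondrial ribosomal proteins, which are also made in the cytosol, 34 were higher and 2 lower, with a median of 1.49, and of 0.67 after both trends were removed. Mrps11, of the small mitochondrial subunit, had a ratio of 2.37 ± 0.21, and Mrpl37, of the large one, stood at 84.8, 93.5 and 82.3 against 20.8, 24.4, 22.4 and 20.02 (1.94 ± 0.13, limma adjusted p = 7.5e-05).

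Messages transcribed inside mitochondria are translated there, on mitochondrial ribosomes. Of 12 tested, 10 were lower and none higher, with a median of -1.13, but 6 were lower without polysomal replicate 2 and 5 without polysomal replicate 3. mt-Nd1, a subunit of complex I, stood at 65.8, 84.2 and 156 against 238, 343, 228 and 237 (-1.43 ± 0.30, limma adjusted p = 0.00375). mt-Atp6, a subunit of ATP synthase, stood at 193, 126 and 277 against 491, 817, 536 and 593 (-1.66 ± 0.29, limma adjusted p = 0.00171). The groups did not overlap in either gene, polysomal replicate 4 was the highest of its group, and total replicate 2 was the highest of the total libraries. These messages have a median GC of 36.5%, and the count of calls moved with the correction: after the GC trend alone was removed the median was -0.29 with 2 lower, after the length trend alone -3.02 with 12 lower, and after both -1.62 with 11 lower, and with one weight per fraction 4 were lower.

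Histone messages divided by class. Replication-dependent histones, which end in a stem-loop in place of a poly(A) tail, were higher in 16 of 22 and lower in none, with a median of 2.06. Polysomal replicate 2 stood at 0.45, and replicates 3 and 4 at 2.33 and 2.89, over the mean of total RNA. H3c8, a histone H3 gene, stood at 178, 269 and 262 against 26.2, 31.6, 29.7 and 22.8 (3.04 ± 0.19, limma adjusted p = 6.2e-05), and its groups did not overlap. Of the linker histone gene H1f1, values were 1451, 3208 and 2712 against 725, 558, 754 and 612 (1.82 ± 0.29). These genes are short and rich in GC (median coding length 385.5 bases, GC 58.6%). After both trends were removed the list median was -0.25, with 4 higher and 4 lower, and on RPKM as deposited 10 were higher. With both trends removed, H3c8 was at 0.27 and H1f1 at -0.03, neither called. Histone genes are near-identical copies of each other, so single values are uncertain.

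Variant histones and histone chaperones had a median of -0.40, and of -0.85 after both trends were removed. Of 13 tested, 3 were higher and 6 lower, against 31.2% and 28.2% of all genes. Without polysomal replicate 2, 6 were higher and 7 lower. Slbp, the protein that binds the histone stem-loop, was lower at 100.2, 104 and 169 against 288, 371, 299 and 292 (-1.36 ± 0.22, limma adjusted p = 0.00109). Nasp, a chaperone of histones H3, H4 and H1, stood at 66.6, 62.1 and 58.0 against 158, 282, 143 and 161 (-1.51 ± 0.24). Neither pair of groups overlapped. H2az2, which encodes an H2A.Z variant, was higher (1.84 ± 0.33), and was at 1.18 and not called with polysomal replicate 1 kept.

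Of 12 genes of the egg coat and of proteins secreted by or on the surface of the oocyte, 6 were higher and none lower, with a median of 0.74. On RPKM as deposited 5 were higher and 3 lower (median 0.18), with quantile normalization 6 and 4 (0.35), with the length trend removed 4 and 4 (-0.17) and with both trends removed 4 and 2 (0.20). Without polysomal replicate 2 or 4, 1 was lower. Zp3, the zona protein known as a sperm receptor, stood at 650.1, 1731 and 1545 against 232, 326, 239.5 and 268 (2.18 ± 0.34, limma adjusted p = 0.000935), and was at 0.52 and not called after both trends were removed. Zp1, the zona protein that cross-links the filaments, stood at 361, 559 and 678 against 161, 169, 164 and 169 (1.63 ± 0.22), and was at 0.44 and not called under the same change. Zp2, the zona protein cleaved after fertilization, stood at 208, 158 and 191 against 222, 228, 215 and 245 (-0.30 ± 0.16, limma adjusted p = 0.124). Zp2 values did not overlap between the groups but the ratio was not called. Izumo1r, which encodes Juno, the egg receptor of the sperm protein Izumo1, stood at 207, 353 and 312 against 53.9, 52.7, 59.4 and 51.7 (2.36 ± 0.20, limma adjusted p = 8.5e-05). The growth factors Gdf9 and Bmp15, which act on cumulus cells, were not called: Gdf9 stood at 1099, 1503 and 2023 against 1214, 1278, 1213 and 1190.0 (0.29 ± 0.24), and Bmp15 at 0.29 ± 0.16. Bmp15 was at 0.94 and called after the GC trend was removed.

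**Figure D4:**
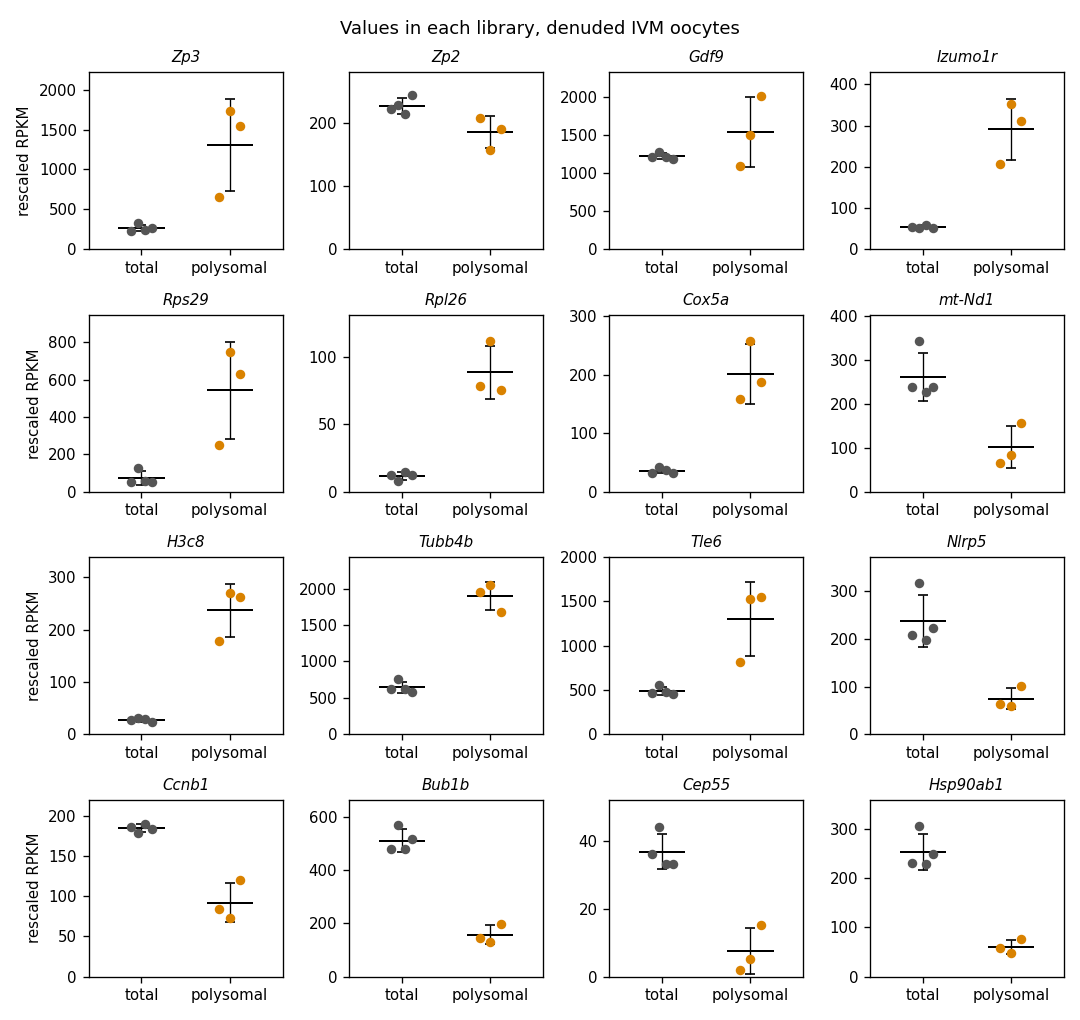
Rescaled RPKM (y axis, from 0) of 16 genes in each library; grey points are the 4 total libraries, orange points polysomal replicates 2, 3 and 4 from left to right, bars the mean and whiskers the SD. Zp3 and Tle6 lie higher in polysomal RNA, while Zp2 and Nlrp5, which belong to the same structures, do not.

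The subcortical maternal complex, a protein assembly under the oocyte membrane that the embryo needs for its first divisions, had members above and below the typical gene. Of 8 tested, 3 were higher and 3 lower, against 31.2% and 28.2% of all genes. The median of 0.11 was -0.46 on RPKM as deposited and -0.84 with quantile normalization. It was -0.61 with the length trend removed, -0.23 with the GC trend removed and -0.38 with both trends removed. Tle6 stood at 814, 1529 and 1547 against 462, 560.1, 477 and 457 (1.35 ± 0.26, limma adjusted p = 0.0025) and was at 0.44 and not called after both trends were removed. Khdc3 and Ooep, named after their values were seen, were the other 2 that were higher, at 2.04 ± 0.47 and 1.02 ± 0.29. Nlrp5, also called Mater, was lower at 63.7, 59.3 and 100.6 against 209, 317, 198 and 224 (-1.67 ± 0.24, limma adjusted p = 0.000688). Nlrp2, of the same family, was lower as well (-1.36 ± 0.30), and Nlrp4f was at -1.03 ± 0.17, and at -0.35 and not called after the GC trend was removed. The coding length was 3333 bases in Nlrp5, 3138 in Nlrp2 and 2811 in Nlrp4f. It was 1743 in Tle6, 1320 in Khdc3 and 492 in Ooep. The 2 members not called, Padi6 (0.27 ± 0.17) and Zbed3 (-0.06 ± 0.21), had 2046 and 684 bases. The part of length in these ratios was not tested.

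Messages known from mouse oocytes to be recruited to polysomes, or needed, as the oocyte resumes meiosis were lower. Of 17 tested, 12 were lower, none higher and 5 not called, with a median of -0.82 (-1.11, -1.25 and -0.45 in polysomal replicates 2, 3 and 4). After both trends were removed the median was -0.87 with 2 higher and 10 lower. Ccnb1, the regulatory cyclin of CDK1, stood at 83.7, 73.2 and 119.9 against 187, 179, 190.1 and 184 (-1.03 ± 0.19, limma adjusted p = 0.00191), and was at -0.45 and not called after both trends were removed. Btg4, the adaptor that brings the deadenylase to maternal messages, stood at 238, 208 and 366 against 498, 602, 511 and 475 (-0.98 ± 0.22, limma adjusted p = 0.00557), and was at -0.28 and not called after the GC trend was removed. Plat, which encodes tissue plasminogen activator and is the classic dormant message of the mouse oocyte, stood at 135, 116 and 244 against 255, 269.9, 277 and 307 (-0.82 ± 0.25, limma adjusted p = 0.0218), and was at -0.57 and not called with polysomal replicate 1 kept. In these 3 genes the groups did not overlap.

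The genes of the list with the smallest p were Bub1b, Tpx2, Ccnb1 and Orc6, and Cep55 had its lowest ratio. Tpx2, an activator of Aurora A kinase, stood at 16.9, 12.9 and 25.03 against 55.7, 71.4, 53.4 and 56.9 (-1.69 ± 0.22, limma adjusted p = 0.000443). Bub1b, a kinase-like protein of the spindle checkpoint, stood at 145, 129.7 and 199 against 480.1, 570.4, 480.0 and 519 (-1.71 ± 0.19, limma adjusted p = 0.000231). Cep55, a midbody protein of cytokinesis, had the lowest ratio of all 5086 genes, at 2.08, 5.13 and 15.1 against 36.4, 44.4, 33.4 and 33.5 (-2.48 ± 0.47, limma adjusted p = 0.00239), with polysomal replicate 4 well above the others of its group. Mos, the kinase that holds the metaphase arrest, stood at 61.9, 129 and 143 against 132, 108, 128 and 118. Its groups overlapped and the ratio was -0.21 ± 0.28 (limma adjusted p = 0.527). Dazl, an RNA-binding activator of translation, was also not called (-0.20 ± 0.18).

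Cytoplasmic polyadenylation elements of the form TTTTAT or TTTTAAT were looked for on the sense strand in the last 100 bases of each gene's annotated transcript (GENCODE M21, GRCm38, the transcript with the longest coding sequence). The sites below are printed because this element is the known switch of maturation-dependent translation; each is 30 bases around the site nearest the annotated end, with the element in capitals.
Plat, chr8:22782744-22782773, plus strand: agtatatttataTTTTAATctattttagtt
Btg4, chr9:51119797-51119826, plus strand: agataaatccctTTTTATgtctttttaaaa
Bub1b, chr2:118641553-118641582, plus strand: tttcactgtgtaTTTTATaataaaatagtt
Orc6, chr8:85308005-85308034, plus strand: tggttttttaaaTTTTATttcactaaatgt
Cep55, chr19:38074321-38074350, plus strand: aaccaaaatgtgTTTTATtccttcagattt
Of 4715 tested genes with at least 100 bases of 3′ UTR, 965 held the element there (20.5%), against 12.5% of the genes called higher and 25.9% of those called lower. The median log2 ratio was -0.28 with and 0.01 without it. With the genes in 3 equal bins by GC, the medians with and without the element were -0.57 and -0.57 at low GC, -0.15 and -0.05 at middle GC, and 0.28 and 0.90 at high GC. In the maturation-recruited list 8 of 16 genes held it (50%), with a median of -1.13 against -0.26 for the rest, and each of the 8 was called lower. Of all 965 genes with the element, 351 were called lower and 177 higher. The 16 genes had a median GC of 46.5%, against 50.4% for the 4715. The part of the element in these ratios was not tested. No such element was found in this window in Ccnb1, Mos, Dazl, Tpx2 or Rbbp7, the other genes looked at one by one. Annotated ends need not be the ends used in the oocyte.

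Of 22 genes of deadenylation and decapping, several of which are also in the maturation-recruited list, 10 were lower and 1 higher. Over all genes 28.2% were lower and 31.2% higher. The list median was -0.42, and -0.13 with 5 lower and 2 higher after both trends were removed. The number lower was 5 without polysomal replicate 3, 6 without total replicate 1 or 4, 6 with the replicate block or one weight per fraction, 4 with the GC trend removed and 19 on RPKM as deposited. Cnot7, a catalytic subunit of the CCR4-NOT deadenylase, stood at 26.5, 13.9 and 39.1 against 62.1, 54.9, 57.7 and 59.1 (-1.23 ± 0.30), and was at -0.50 and not called after the GC trend was removed. Pan2, a catalytic subunit of the other main deadenylase, stood at 9.47, 8.97 and 17.6 against 24.3, 22.9, 24.6 and 26.0 (-1.03 ± 0.22, limma adjusted p = 0.0046). Of 17 genes of message storage and polyadenylation, 4 were higher and 7 lower, against 31.2% and 28.2% of all genes. The list median was -0.20, and -0.10 after both trends were removed. The number lower was 4 without polysomal replicate 3, 3 without total replicate 1 or 4, and 2 with the replicate block or one weight per fraction. With the length trend removed 1 was higher and 3 lower, and with the GC trend removed the median was 0.03. Ybx2, the abundant packaging protein of oocyte messages, was higher at 368, 506 and 519 against 186, 175, 200 and 189 (1.29 ± 0.17, limma adjusted p = 0.000485), but was at -0.15 after the GC trend was removed. Eif4e1b, an oocyte form of the cap-binding protein, was at 600.4, 659.9 and 430.3 against 280.5, 282, 269.7 and 270.4 (1.01 ± 0.19), and at 0.23 and not called after the length trend was removed. Papolg, a nuclear poly(A) polymerase, was lower (-1.15 ± 0.17).

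Of 35 genes of the spindle and kinetochore, 23 were lower and 8 higher, with a median of -0.76, and of -0.37 with 15 lower and 3 higher after both trends were removed. The counts were 25 lower and 1 higher on RPKM as deposited. Incenp, the scaffold of the chromosomal passenger complex, stood at 36.3, 40.9 and 42.5 against 117, 202, 124 and 125 (-1.77 ± 0.21, limma adjusted p = 0.000279). Cdca8, which encodes Borealin of the same complex, stood at 10.7, 20.8 and 22.7 against 71.1, 126, 67.5 and 69.5 (-2.16 ± 0.31). Aurkb and Birc5, the kinase and Survivin of that complex, named after their values were seen, were higher, at 0.86 ± 0.18 and 0.90 ± 0.18 (limma adjusted p = 0.00385 and 0.0033). Incenp and Cdca8 were thus below and the kinase and Survivin above the typical gene. The part of GC or length in this split was not tested. Among the kinesin motors of the lists, a class picked after its values were seen, 6 of 6 were lower (-1.80 to -0.93). Their median coding length was 3007.5 bases and their median GC 47.2%. Kif11, the motor that keeps spindle poles apart, was at -1.33 ± 0.17 and the chromokinesin Kif4 at -1.12 ± 0.14. Ckap5, a microtubule polymerase, stood at 3.45, 4.61 and 11.8 against 31.7, 34.3, 31.3 and 32.9 (-2.29 ± 0.32, limma adjusted p = 0.000592).

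Structural proteins of the cytoskeleton stood on the other side. Of 16 actin and tubulin genes, 14 were higher and 1 lower, with a median of 1.29, and of 0.30 with 4 higher and 4 lower after both trends were removed, and on RPKM as deposited 9 were higher. Tubb4b, a beta-tubulin, stood at 1962, 2048 and 1683 against 617, 756, 617 and 583 (1.56 ± 0.19, limma adjusted p = 0.000309), and was at 0.45 and not called after both trends were removed. Pfn1, which encodes the actin-binding protein profilin, stood at 233, 588 and 482 against 71.5, 86.4, 74.2 and 68.4 (2.42 ± 0.30). In both genes the groups did not overlap.

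Of 33 cell cycle regulators, 9 were higher and 9 lower, against 31.2% and 28.2% of all genes, with a median of -0.15, and of 0.17 after both trends were removed. Higher and lower counts were 7 and 17 on RPKM as deposited, and 5 and 6 with polysomal replicate 1 kept. Anapc11, the RING subunit of the anaphase-promoting complex, was higher (1.78 ± 0.20), as was Mapk3, which encodes ERK1 of the Mos pathway, at 143, 178 and 191 against 61.4, 46.8, 51.7 and 53.6 (1.66 ± 0.16, limma adjusted p = 0.000151), though at 1.11 and not called with polysomal replicate 1 kept. Of 19 replication licensing genes 3 were higher and 9 lower, against 31.2% and 28.2% of all genes, with a median of -0.34. After both trends were removed the median was -0.12, with 2 higher and 4 lower. With polysomal replicate 1 kept, 1 was higher and 5 lower. Mcm5, a subunit of the replicative helicase, was at 1.5 ± 0.17 and Orc6, of the origin recognition complex, at 11.4, 7.01 and 16.2 against 30.4, 41.5, 30.4 and 27.1 (-1.46 ± 0.26, limma adjusted p = 0.00192).

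Of 27 genes of DNA methylation and chromatin, 13 were lower and none higher, with a median of -0.53. On RPKM as deposited 23 were lower (median -1.01) and with quantile normalization 21 (-0.76). Dnmt1, the maintenance DNA methyltransferase, stood at 200.4, 189 and 238 against 452, 604, 449 and 485 (-1.24 ± 0.18, limma adjusted p = 0.000653). Eed, a subunit of Polycomb repressive complex 2, stood at 40.3, 26.0 and 36.5 against 87.6, 102, 83.8 and 86.3 (-1.39 ± 0.18). The remodeller Smarca5 was lower as well (-1.54 ± 0.25). The groups did not overlap for Dnmt1 or Eed. Dppa3, which protects the maternal genome from demethylation, was not called (-0.24 ± 0.20). After both trends were removed, 1 gene of the list was higher and 15 lower, with a median of -0.47.

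Proteasome genes had a median of 0.48, with 12 of 30 higher and 6 lower, against 31.2% and 28.2% of all genes. On RPKM as deposited the median was -0.08 with 10 higher and 12 lower, after the length trend was removed -0.03 with 9 and 11, and after both were removed 0.19. The number lower was 2 without polysomal replicate 3 or total replicate 1, 2 with one weight per fraction, and 3 without polysomal replicate 4 or total replicate 2 or with polysomal replicate 1 kept. The beta subunits, which hold the proteolytic sites, were higher in 6 of 7 (1.45 to 2.70); this class was picked after its values were seen. Psmb5 stood at 23.0, 35.8 and 34.8 against 3.46, 3.81, 4.17 and 4.09 (2.70 ± 0.18, limma adjusted p = 7.4e-05). The ATPase subunits of the regulatory cap, picked likewise, were higher in 1 of 6 and lower in 3 (-0.80 to 0.85). Median coding length was 720 bases in the beta subunits and 1287 in the ATPases. The alpha subunits of the list, at 741 bases, were higher in 1 of 4 and lower in none (-1.11 to 0.98). The Psmd genes, at 1137 bases, were higher in 2 of 9 and lower in 1 (-0.73 to 1.71). The part of length in these differences was not tested.

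Chaperones were lower in 13 of 30 and higher in 5, against 28.2% lower and 31.2% higher over all genes. Their median was -0.46, and -0.34 after both trends were removed. Lower and higher counts were 23 and 3 on RPKM as deposited, and 22 and 5 with the length trend removed. Hsp90ab1, the constitutive cytosolic HSP90, stood at 57.7, 48.5 and 75.9 against 230.1, 306, 229 and 249 (-2.06 ± 0.20, limma adjusted p = 0.000129). Canx, the membrane chaperone calnexin, stood at 34.6, 31.9 and 40.4 against 79.0, 94.1, 74.6 and 83.2 (-1.20 ± 0.15). Hspa1b, a heat-inducible HSP70, was higher, at 14.9, 12.9 and 12.95 against 2.70, 2.19, 2.84 and 2.996 (1.99 ± 0.15, limma adjusted p = 8e-05), and it has a near-identical copy, Hspa1a. Of 7 messages known for regulatory upstream reading frames, 2 were higher and 4 lower, against the same 31.2% and 28.2%. Their median was -0.46, and 0.20 with 1 higher and 1 lower after both trends were removed. Leaving out polysomal replicate 2 or 3, or total replicate 1, 2 or 4, left 2 lower, and with polysomal replicate 1 kept 1 was lower and none higher. Ppp1r15a, which encodes the stress phosphatase subunit GADD34, stood at 15.3, 21.8 and 20.9 against 43.4, 47.9, 44.4 and 43.9 (-1.19 ± 0.16), and Atf4, the stress transcription factor, was at 0.92 ± 0.24 and was not called with polysomal replicate 1 kept (0.35).

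The oocyte homeobox family Obox and the PRAME-like family, both expanded in the mouse, differed in their calls. All 4 Obox genes tested were lower (-1.87 to -1.42) and 2 of 14 PRAME-like and Oog genes were lower (-0.81 to 0.41), with no gene higher in either. Over both families the median was -0.14. With the GC trend removed 4 genes were higher and 3 lower (median 0.40), with the length trend removed none and 14 (-0.99), with both removed 1 and 5 (-0.03), and on RPKM as deposited none and 13 (-0.70). The families were split after their values were seen, and the difference between them was not tested. Obox1 stood at 25.9, 30.3 and 101.2 against 175, 147, 162 and 160.0 (-1.87 ± 0.41, limma adjusted p = 0.00489), with polysomal replicate 4 far above the others of its group. Both families hold near-identical copies, so single values are uncertain.

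At the top of the ranking, Lars2, the mitochondrial leucyl-tRNA synthetase, had the highest ratio (4.83 ± 0.74, limma adjusted p = 0.000928). Its values were 2290, 289 and 218 against 12.6, 12.7, 30.6 and 19.0, so polysomal replicate 2 was far above the others. The mouse Lars2 locus holds a stretch like ribosomal RNA, which makes its value uncertain. Hsd3b7, an enzyme of bile acid synthesis, stood at 29.6, 47.1 and 33.5 against 3.32, 1.86, 2.41 and 1.70 (3.50 ± 0.22, limma adjusted p = 6.2e-05), and Znrd2 at 94.5, 118 and 141 against 13.5, 12.2, 14.4 and 13.5 (3.03 ± 0.16). Polr1h, a subunit of RNA polymerase I, was at 2.98 ± 0.27, and at 1.54 and not called with polysomal replicate 1 kept. The others of the highest 12 with a mean of at least 5 RPKM were Atp5k, Rps18, H2ac19, H3c8, Teddm1b, Rps29, Naa38 and Rps13, so 3 of the 12 were ribosomal protein genes and 2 were histone genes.

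At the bottom, Cep55 was lowest. Just above it lay D6Ertd527e (-2.46 ± 0.40), Mfap1b, a splicing factor gene with a near-identical copy (-2.45 ± 0.26), and Sap30, a subunit of a histone deacetylase complex (-2.39 ± 0.37). Copb1, a coat protein of Golgi vesicles, stood at 3.44, 3.17 and 18.9 against 34.1, 42.0, 33.8 and 33.2 (-2.35 ± 0.49). Rbbp7, a histone-binding subunit of chromatin complexes, stood at 62.0, 62.7 and 139 against 334, 406, 342 and 345 (-2.11 ± 0.28, limma adjusted p = 0.000485). Ckap5, Psip1, Cdca8, Llph, Hsp90ab1 and Cenpj made up the rest of the lowest 12, with ratios of -2.29 to -2.03.

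The lowest value in the tables used is 0.2 RPKM, in any library, so genes nearly absent from polysomal RNA are not among the 5086. Of the genes in the total table, 5831 had no row in a polysomal table with IVM libraries. Their median total RNA level was 2.34 RPKM as deposited, against 20.1 for the genes in both tables, and 849 of them stood above 10 RPKM. The highest were Nexn (228 ± 71.6 RPKM, SD, n = 4), Ik (164 ± 44.0) and Gkap1 (142 ± 20.3). Their polysomal values were not analysed here. No long non-coding RNA of the lists was tested, Malat1 among them.

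The same ratio was formed in IVO and in COC oocytes (4 polysomal and 4 total libraries each) and the difference of the ratios was tested. No gene of 5086 differed between IVM and IVO oocytes (0% called; smallest limma adjusted p = 0.66; 181 genes at an unadjusted p under 0.05), and no gene of 5013 differed between IVM and COC oocytes (0% called; smallest limma adjusted p = 0.0532; 345 genes at an unadjusted p under 0.05). The median standard error of a difference was 0.35 and 0.31 on the log2 scale. A call after adjustment over all genes needs a difference of several standard errors. Differences well above these sizes in a single gene could therefore be missed. Genes without a row, which may include some with low values in 1 group, were outside this comparison. Without IVM polysomal replicate 2, the shallowest library, 10 genes were higher and 3 lower in IVM than in COC oocytes. Across genes the ratios in IVM correlated with those in IVO oocytes at a Spearman rho of 0.928 and with those in COC oocytes at 0.938, as a description over genes that share their GC and length in the 3 groups.

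Side by side, and with no test of a list, cytosolic ribosomal proteins had a median of 2.04 in IVM, 2.22 in IVO and 1.98 in COC oocytes. Nuclear-encoded respiratory chain genes were at 1.91, 1.89 and 1.91, and maturation-recruited genes at -0.82, -0.78 and -0.98. Mitochondrially encoded messages were at -1.13, -0.52 and -1.13, and replication-dependent histones at 2.06, 1.93 and 1.19. The COC medians come from the 5013 genes tested with COC oocytes, where some lists differ in their members. Of the histones, 21 genes were tested there against 22 with IVO oocytes, and the IVM median over the 21 was 2.03. Translation factors were at -0.09, 0.37 and 0.18.

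**Figure D5:**
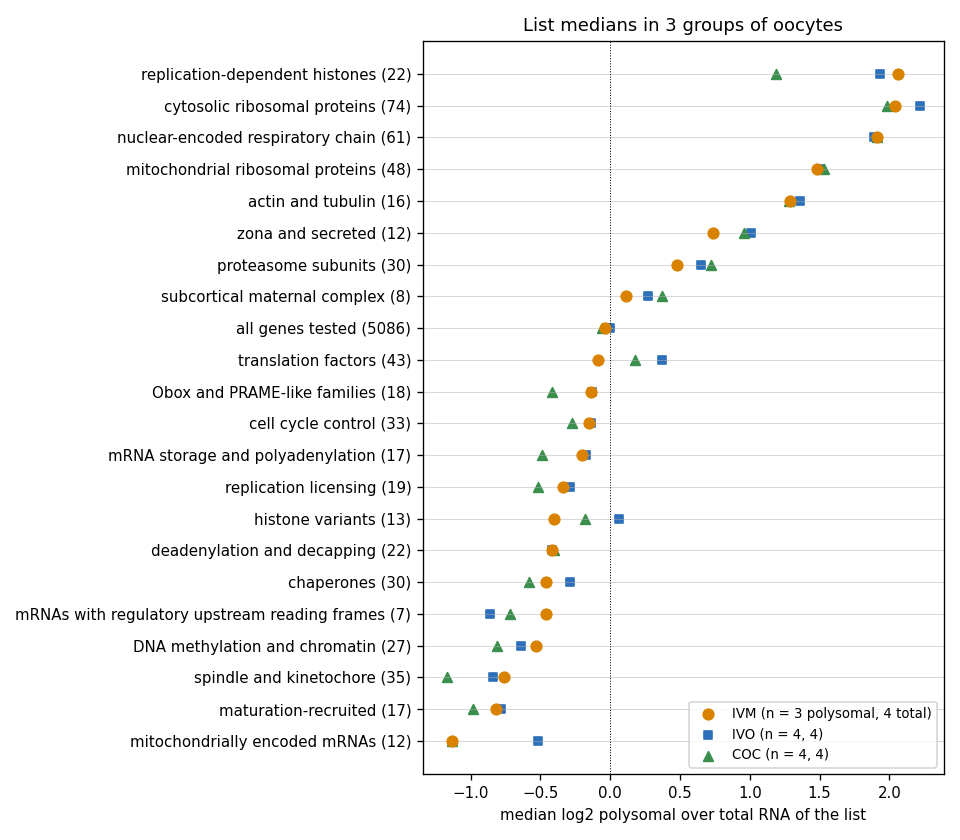
Median log2 polysomal over total RNA of each gene list (x axis) in IVM (orange), IVO (blue) and COC oocytes (green), with the number of genes tested in IVM in brackets. COC medians come from the 5013 genes tested with COC oocytes, where some lists differ in their members (21 histones against 22). The order of the lists differs between the groups. Mitochondrially encoded messages are lowest in IVM (-1.13) but not in IVO (-0.52). In COC oocytes they lie at -1.13, above spindle and kinetochore genes at -1.17. Replication-dependent histones are highest in IVM, at 2.06 against 2.04 for ribosomal proteins. They lie below ribosomal proteins in IVO (1.93 against 2.22) and COC oocytes (1.19 against 1.98). Differences between list medians were not tested.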

How the data were processed

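Per the labels' protocols, a stranded kit for low-input total RNA (SMARTer Stranded, Pico Input) gave the libraries. DRAGEN and the build GRCm39 are named in the submitters' processing notes. The sources used here do not give the annotation, the strand setting or how reads with several matches were counted. The authors deposited RPKM values per gene and library, and 4 of the 8 deposited tables were used. IVM values were the same in both tables that hold them.

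Libraries were scaled by median of ratios over the genes tested, log2(RPKM + 1) was fitted with limma 3.58.1 (variance trend, R 4.3.3), and differences between groups were tested as an interaction. The fits were tested on simulated data, and the outcome is not given here. Read depth was recovered from the steps of low RPKM values. Lengths and GC came from GENCODE M21 (5082 of 5086 genes).

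Named were the 12 highest and 12 lowest called genes with a mean of at least 5 RPKM (predicted and clone names left out), from each list the 4 genes of lowest p, and 14 genes always shown, of which Malat1 was not tested. Members and lists were chosen with earlier results of these data known. Alternatives were other scalings, pseudocounts, filters and thresholds, each library left out, replicate 1 kept, a replicate block, weights, and removal of GC or length trends.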

Additional observations from a re-analysis of the deposited data

Results flagged for a closer look

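In the 4 total RNA libraries, 27 of 113 genes named had 1 library far from the other 3 by Dixon's test, where chance flags about 1 in 20. Total replicate 2 was that library in 25 of them and replicate 1 in 2. Replicate 2 was the highest for the following genes, in rescaled RPKM. Among genes high on polysomes these were Polr1h (16.75), Rps29 (127.1), Naa38 (18.02), Rps13 (14.32), Anapc11 (6.663), H2az2 (17.64), Mrpl14 (33.06) and Psmb4 (33.46). Among genes low on polysomes these were Slbp (371.1), Nasp (282.3), mt-Nd1 (343.1), mt-Nd2 (324.6), Mcm10 (51.65), Incenp (201.6), Nlrp4f (509.1), Nlrp2 (60.36), Cenpj (43.52), Llph (50.54), Rbbp7 (405.5), Cdca8 (126.1), Psip1 (164), Copb1 (42.04), Mfap1b (97.42) and D6Ertd527e (1043). Replicate 2 was the lowest for Nr5a2 (8.051). Replicate 1 was the highest for Oog3 (248.7) and the lowest for H2ac18 (708.8). Without total replicate 2, 1477 genes were higher and 1224 lower in polysomal RNA, 2672 of them called in the same direction as with it.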

How the results depend on the processing

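Counts of genes stayed within 1.5 times of 1588 higher and 1432 lower with quantile normalization, a pseudocount of 0.1, a mean of at least 1 RPKM, replicate 1 kept, array weights, no variance trend, either or both trends removed, one weight per fraction (the last 2 chosen after seeing the data), and the tables with COC oocytes. Counts do not show which genes: with the GC trend removed 1754 of the 3020 calls kept their direction and 32 were called in the opposite one, and with both trends removed 1444 and 88. On RPKM as deposited 1006 were higher and 2635 lower, at an adjusted p under 0.01 885 were lower, and with a 2-fold change 533. Leaving out 1 library gave 1398 to 1770 higher and 1130 to 1598 lower. The replicate block gave 1365 and 1019, and no calls between groups; same-numbered libraries correlated at 0.018, 0.022 and 0.14 in their deviations, and the fractions were not fitted as pairs; whether same-numbered libraries share a collection is not known. Against IVO oocytes, calls were 0 higher and 0 to 1 lower with 1 library left out; against COC oocytes 0 to 10 higher and 0 to 3 lower (10 and 3 without IVM polysomal replicate 2; 2 and 1 without COC polysomal replicate 1; 1 and 1 without replicate 4; 0 and 1 without replicate 3), and 1 lower on RPKM as deposited, with a pseudocount of 0.1, without the variance trend and with the length trend removed. The cause was not tested.

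The sign turned on RPKM as deposited for Bmp15 (-0.27) and Gdf9 (-0.28), with quantile normalization for Bmp15 (-0.33) and Gdf9 (-0.67), with the length trend removed for Bmp15 (-0.11), Gdf9 (-0.60), Figla (-0.31) and Zar1l (-0.60), with the GC trend removed for Gdf9 (-0.07), Eef1a1 (0.18), Dazl (0.68), Dppa3 (0.22), Zp2 (0.07), Cnot6l (0.01), Nr5a2 (0.22) and Ybx2 (-0.15), and with both removed for Gdf9 (-0.57), Dazl (0.68), Cnot6l (0.26), Nr5a2 (0.39), Figla (-0.11), Ybx2 (-0.72), Zar1l (-0.41), H2ac18 (-0.46), H1f1 (-0.03) and Fgf8 (-0.03). With 1 library left out, Eef1a1 ran from -0.36 (without polysomal replicate 2) to 0.10 (without replicate 4) and Mos from -0.44 (without replicate 4) to 0.18 (without replicate 2). With 3 polysomal libraries, of which replicate 2 holds 4.93 M reads, small ratios of low genes were not detectable.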
